A study of Mus musculus with 6 samples.

Results

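The genes described here encode the machinery of mitochondrial oxidative phosphorylation, measured in conjunctival epithelium of mice with and without the transcription factor Spdef. They were chosen by symbol: every gene whose symbol starts with Nduf, Uqcr, Atp5 or Cox4 to Cox8, plus Sdha, Sdhb, Sdhc, Sdhd, Cyc1 and Cycs. The rule found 186 probe sets of 94 genes among the 18096 named genes on the arrays, and used no measured value. By role, 36 belong to complex I, 8 are complex I assembly factors, 4 belong to complex II, 9 to complex III, 1 is cytochrome c, 19 belong to complex IV and 17 to complex V. All are nuclear genes. The subunits encoded by mitochondrial DNA were not analysed here, since 0 of the 26 symbols listed for them named a probe set.

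The study asked whether loss of Spdef alters gene expression in this epithelium, with 3 Affymetrix arrays of Spdef +/+ mice and 3 of Spdef -/- mice. All mice were C57BL/6 and 8 weeks old, and the labels name no treatment and no other allele. For each sample the submitters combined 1 eye from each sex, and the 40% of the conjunctival epithelium deepest in the fornix was cut out by laser from 6 µm sections. The labels do not say how the Spdef allele was made or in which cells it is absent. Effects from outside the epithelium, such as inflammation, may be part of the comparison, which was not tested. Signals are the authors' dChip expression values on a linear scale, log2 differences are Spdef -/- minus Spdef +/+, and no probe set's signal is set against another's.

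The Spdef probe set read 801, 689 and 587 in the Spdef +/+ arrays and 1, 3.62 and 2.94 in the Spdef -/- arrays, where 1 is the floor. The sources used here do not say whether it lies inside the deleted part. Of 8 markers each, 7 goblet cell markers were called lower and 5 markers of stratified conjunctival epithelium were called higher in Spdef -/-. The 8 goblet cell markers include Spdef itself, whose fall follows from the genotype. The mean log2 signal of the epithelial markers was 12.66 to 12.69 in Spdef +/+ and 12.98 to 13.06 in Spdef -/-. All 8 proliferation markers were called higher (8.47 to 8.68 against 10.08 to 10.53), as were all tested markers of neutrophils (3) and lymphocytes (4), while 4 of 7 stromal markers were called lower. Corneal epithelial markers were also detected, and 0 of 4 were called by limma (1 lower at an unadjusted p under 0.05). All 4 differences were negative, with a median of -0.99 and a median residual SD of 0.61. The mean log2 signal of these markers was 10.84 to 12.34 in Spdef +/+ and 10.31 to 11.14 in Spdef -/-, so that equal corneal content is not shown. Spdef +/+ replicate 2 stood apart in fat and gland genes, with a Fabp4 signal of 6823 against 34.9 to 70.3 on the other 5 arrays, Adipoq at 1512 against 13.4 to 33.5, and Scd1 at 3573 against 149 to 283. Spdef +/+ replicate 3 stood apart in stromal and muscle genes, with Col1a1 at 4522 against 2322 and 2421 on the other Spdef +/+ arrays. Skeletal muscle, a tissue rich in mitochondria, left little signal: Ckm, Myh2, Myh7 and Des were Present on no array, 4 of 14 muscle markers were tested and 0 were called by limma (0 at an unadjusted p under 0.05), and their mean log2 signal was 4.76 to 7.01 in Spdef +/+ and 4.18 to 5.48 in Spdef -/-. Of 5 brown fat markers, Ucp1 was Present on no array and 3 were tested, with 1 called lower (Ppargc1a, described below) and 1 higher. Their mean log2 signal was 7.63 to 7.86 in Spdef +/+ and 7.57 to 7.99 in Spdef -/-.

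Oxidative phosphorylation passes electrons from NADH through complex I, or from succinate through complex II, to ubiquinone, then through complex III and cytochrome c to complex IV, which reduces oxygen. Complexes I, III and IV pump protons across the inner mitochondrial membrane, and complex V, the ATP synthase, uses the resulting gradient to make ATP. The subunits come from nuclear and mitochondrial genes, and the nuclear genes are known to be served by factors such as NRF1, the ETS protein GABPA, YY1 and the estrogen-related receptors (ERR), with the coactivator PGC-1α acting through several of them. Spdef is itself an ETS factor, known in mucosal epithelia for its role in goblet cell maturation.

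Promoter sequences are shown for 5 called members in which the letters searched lay in the 100 bases before a transcription start, because they place the recognition letters of these known regulators beside genes that differed between genotypes. They come from RefSeq on build GRCm38.p6 and are written in the direction of transcription, with capitals for the letters found. Ndufa6 lies at chr15:82354292-82354391, Ndufb4 at chr16:37654369-37654468, Cycs at chr6:50566570-50566669, Ndufa4 at chr6:11907451-11907550 and Atp5g3 at chr2:73911327-73911426, all on the minus strand. The Atp5g3 start used by the promoter table lies inside the outer bounds of the gene in the RefSeq gene table, so that transcripts with an earlier start have another promoter.
Ndufa6: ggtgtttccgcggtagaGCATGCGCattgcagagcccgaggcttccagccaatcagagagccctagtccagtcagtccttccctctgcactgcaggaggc
Ndufb4: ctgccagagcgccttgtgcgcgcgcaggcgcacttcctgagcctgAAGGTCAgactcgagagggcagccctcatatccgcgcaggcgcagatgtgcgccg
Cycs: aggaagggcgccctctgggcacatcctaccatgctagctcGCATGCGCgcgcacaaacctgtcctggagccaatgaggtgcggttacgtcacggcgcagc
Ndufa4: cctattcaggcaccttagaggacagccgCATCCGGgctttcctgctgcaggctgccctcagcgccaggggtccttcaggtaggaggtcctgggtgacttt
Atp5g3: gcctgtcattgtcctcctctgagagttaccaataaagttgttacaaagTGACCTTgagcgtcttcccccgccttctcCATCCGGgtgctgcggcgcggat

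In Ndufa6 and Cycs the capitals are the reverse complement of the NRF1 letters GCGCATGC. In Ndufb4 they are the ERR letters AAGGTCA, and in Ndufa4 the reverse complement of CCGGATG, the ETS form that SPDEF prefers. Atp5g3 holds the reverse complements of both AAGGTCA and CCGGATG. The promoter table matched 74 of the tested members with 79 windows, each of 300 bases from 250 before to 50 after the start, and both strands were searched. NRF1 letters stood in 16.5% of the members' windows, against 4.91% of the 12210 windows of all tested genes, and ERR letters in 10.1% against 3.11%. YY1 letters, AAGATGGC, stood in 13.9% against 4.33%, and the general ETS letters CCGGAAG in 24.1% against 17.2%. The form CCGGATG stood in 5.06% of the members' windows, against 3.51%, and its 4 genes were Ndufaf7 among the called-lower, Atp5g3 and Ndufa4 among the called-higher, and Ndufaf8 among the uncalled. CCGGAAG stood in 0 of the 10 windows of called-lower and 0 of the 4 windows of called-higher members, and in 19 of the 65 windows of uncalled members. NRF1 letters stood in 1, 1 and 11 of these windows, ERR letters in 1, 1 and 6, and YY1 letters in 1, 0 and 10. Most windows with NRF1, ERR or YY1 letters thus belonged to members that were not called. These counts describe letters in the windows, and no binding was measured.

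Oxidative phosphorylation genes differed little between genotypes, and the differences did not run one way. Testing needed a Present call on 3 or more of the 6 arrays, and a gene's brightest such probe set stood for it, which left 89 of the 94 members, 86 of them Present on all 6 arrays. With limma and Benjamini-Hochberg adjustment over all 11899 tested genes, 10 members were called lower and 6 higher in Spdef -/- at an adjusted p under 0.05, and 73 were not called. That is 18.0% of the members, where the same test called 39.7% of all genes (24.0% lower and 15.8% higher) and 36.2% of the 1069 genes whose mean signal lay in the interquartile range of the members. The split between lower and higher depended on the scaling. Centring each array on its median signal gave 6 lower and 10 higher, and centring on the bacterial hybridization controls gave 1 lower and 0 higher (2 and 0 at an unadjusted p under 0.05). Less signal from fewer cells of a type and less RNA per cell cannot be told apart in such pooled tissue.

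The members' differences were small as well as seldom called. Their median log2 difference was -0.04, against -0.06 over all genes, and the median size of the difference was 0.139 against 0.283. For 71 of 89 members (79.8%) the 95% interval of the difference lay within 0.5 log2 of 0 in either direction, which held for 40.2% of all genes. No member differed by more than 1 log2 unit, as 1148 genes (9.65%) did. The members were measured with less spread than most genes, their median residual SD being 0.0755 against 0.139 on the log2 scale. Among the 1069 genes as bright as the members the contrast was smaller. Their median size of the difference was 0.219, and 57.2% had intervals within 0.5 log2 of 0. Of these genes 4.49% differed by more than 1 log2 unit, and their median residual SD was 0.102. Signals of the 2 genotypes did not overlap for 41 members, 26 lower and 15 higher, where 55.3% of all genes had such separate groups. None of the members' probe sets is among the 153 in the authors' deposited table, which kept folds whose lower bound was over 3. Leaving out Spdef +/+ replicate 1, 2 or 3 gave 3 lower and 2 higher, 7 and 2, or 6 and 4, and leaving out Spdef -/- replicate 1, 2 or 3 gave 6 and 2, 6 and 5, or 9 and 4. Of the 16 called members, 5 kept the call without any 1 array: Ndufa6, Ndufa7, Ndufb4, Ndufa4 and Cycs. These 5 lost it under 1 of 15 other settings, the bacterial controls. The choice of the brightest probe set also bears on the counts. Of 74 further tested probe sets of the members, 19 were called in the limma fit of single probe sets, and 10 of these belonged to 9 members that the brightest did not call. They were lower for Ndufab1, Ndufs4, Ndufs5, Ndufs8, Sdha, Cox7a2l and Atp5c1 and higher for Ndufaf4 and Atp5pb, genes picked out after their values were seen. For Ndufab1 the further probe set gave -0.74 (adjusted p = 0.00892, limma) where the brightest gave 0.07.

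**Figure D1:**
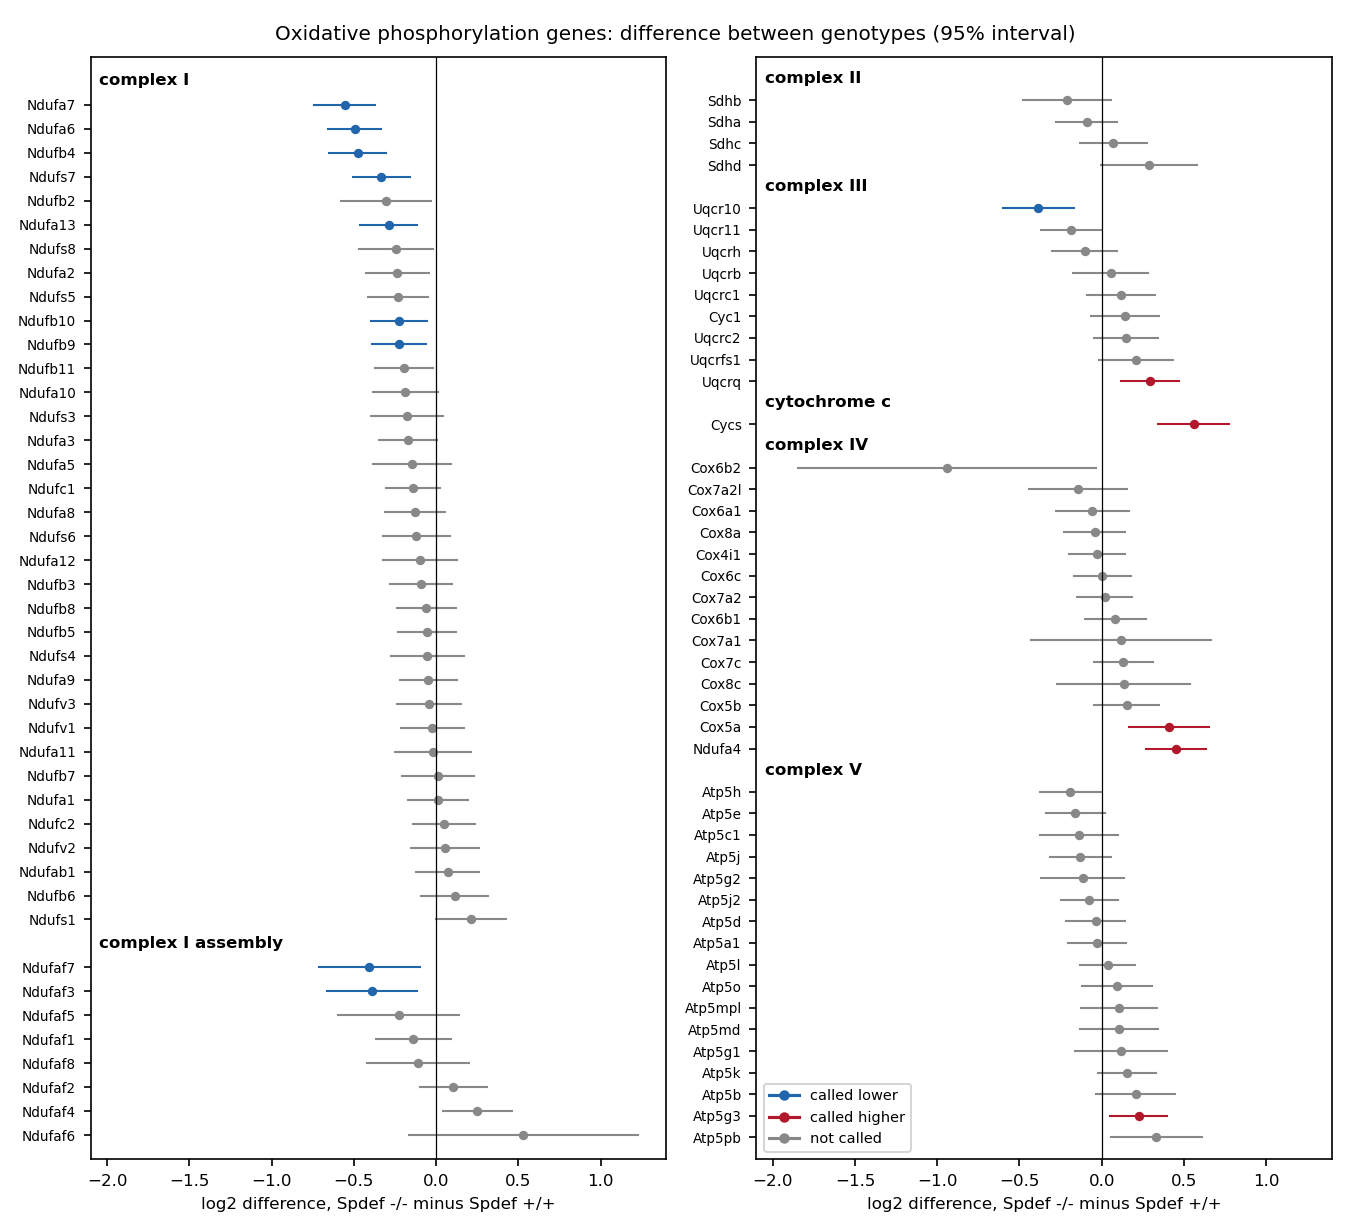
Log2 difference, Spdef -/- minus Spdef +/+, of 88 tested oxidative phosphorylation genes (points) with its 95% interval from limma (bars, 3 arrays per genotype), by complex; blue marks genes called lower, red called higher, grey not called. Most of complex I lies left of 0 and the other complexes straddle it; 10 of those drawn are blue and 5 red. Over all 89 tested members the split of 10 lower and 6 higher became 6 and 10 when arrays were centred on their medians.

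Complex I, which oxidises NADH and is the largest of the complexes, held most of the genes called lower. Of 36 tested subunits 7 were called lower, 1 was called higher and 28 were not called. The share called lower, 19.4%, is below the 24.0% of all genes. The median log2 difference was -0.12, and 28 of the 36 differences were negative, where 6685 of the 11899 tested genes had a negative difference. The median stayed negative under every scaling, at -0.10 with quantile normalization, -0.06 on array medians and -0.20 on the bacterial controls. The median over all genes was -0.02, 0.01 and -0.14 under these 3 settings. Quantile normalization kept 7 subunits lower and 1 higher, and array medians gave 5 and 2. On the bacterial controls 0 were called by limma (1 lower and 0 higher at an unadjusted p under 0.05). Averaged over the 36 genes, the log2 signal was 11.34, 11.32 and 11.31 in the Spdef +/+ arrays and 11.23, 11.17 and 11.19 in the Spdef -/- arrays. Every Spdef -/- array thus lay below every Spdef +/+ array, by 0.13 on average. The mean over all 11899 genes separated in the same way, at 8.53, 8.53 and 8.52 against 8.47, 8.45 and 8.46, a difference of 0.07. The 45 tested members outside complex I and its assembly factors had 1 gene called lower and 5 higher and a median of 0.07. Leaving out Spdef +/+ replicate 1, 2 or 3 left 3, 4 or 5 subunits of complex I called lower, and leaving out Spdef -/- replicate 1, 2 or 3 left 4, 4 or 6. Whether complex I differed from the other complexes was not tested.

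**Figure D2:**
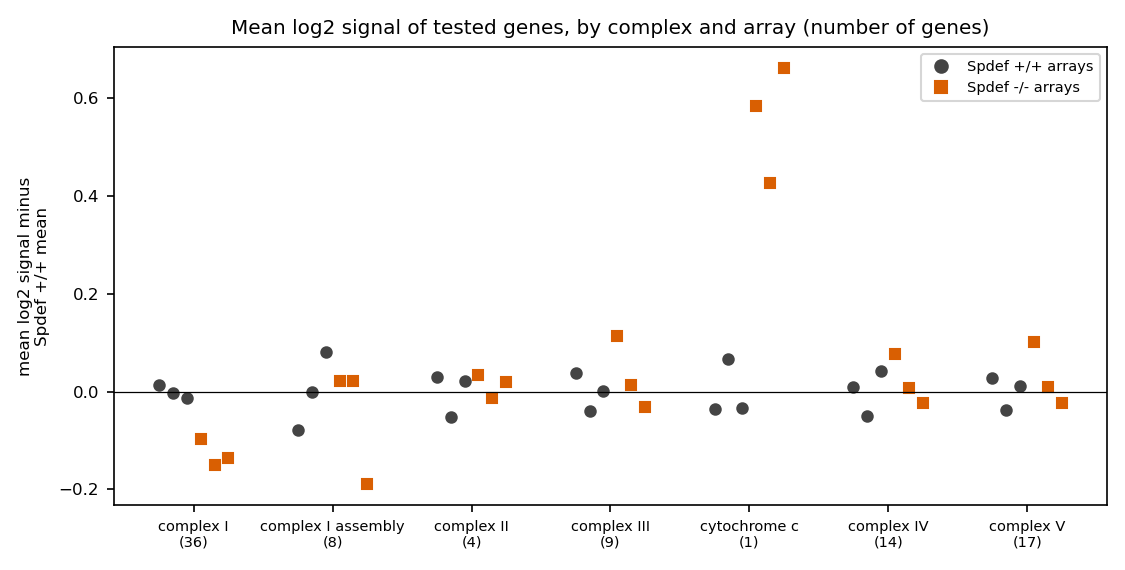
Mean log2 signal of the tested genes of each complex on each array, as the difference from the mean of the 3 Spdef +/+ arrays (circles Spdef +/+, squares Spdef -/-; numbers of genes in brackets). The 3 Spdef -/- squares of complex I, at 11.17 to 11.23 before subtraction, lie below the circles at 11.31 to 11.34, while for complexes II, III, IV and V circles and squares overlap.

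The subunits called lower most clearly were Ndufa7, Ndufa6 and Ndufb4, all supernumerary, that is, without a redox group of their own and absent from the bacterial enzyme. Ndufa7, of the arm that reaches into the matrix, read 2588, 2387 and 2597 in Spdef +/+ and 1716, 1779 and 1654 in Spdef -/-. The groups lay far apart, and the log2 difference was -0.56 ± 0.08 (SE), 1.47-fold lower (adjusted p = 0.00261, limma). All 5 Ndufa7 probe sets were called lower in the fit of single probe sets, with log2 differences from -0.61 to -0.55. Ndufa6, a matrix-arm subunit that binds the acyl carrier protein, read 4510, 4390 and 4430 against 3146, 3110 and 3197. Within each genotype these values spread by little, and the difference was -0.50 ± 0.07, 1.41-fold lower (adjusted p = 0.00247, limma). Ndufb4, of the membrane arm, read 2284, 2192 and 2294 against 1677, 1631 and 1557, a difference of -0.48 ± 0.07 and 1.39-fold lower (adjusted p = 0.00366, limma). A second Ndufb4 probe set gave a log2 difference of -0.49, and the third was Present on 1 array.

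Of the core subunits of complex I, which carry the redox groups, Ndufs7 was called lower. It holds the last iron-sulfur cluster before ubiquinone, and read 2792, 2830 and 2681 in Spdef +/+ and 2180, 2133 and 2277 in Spdef -/-. All Spdef -/- values were lower, by 0.33 ± 0.07 on the log2 scale (adjusted p = 0.0128, limma). The call was lost without Spdef +/+ replicate 1 (largest adjusted p = 0.0562, limma) and held without any other single array. Over the 7 core subunits the median difference was -0.02. Of the 29 supernumerary subunits 6 were called lower and 0 higher by limma (0 higher at an unadjusted p under 0.05), with a median of -0.13 and 24 negative differences.

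Smaller differences were called for Ndufa13 (-0.29, adjusted p = 0.0219, limma), Ndufb9 (-0.23, adjusted p = 0.0393) and Ndufb10 (-0.23, adjusted p = 0.0436). These were picked out after their values were seen. Ndufa13, known also as a partner of STAT3, read 4561 to 4964 in Spdef +/+ and 3808 to 3943 in Spdef -/-. Ndufb9 and Ndufb10 lost the call whichever array was left out (largest adjusted p = 0.128 and 0.148, limma), and the second Ndufb9 probe set gave -0.15 (adjusted p = 0.328, limma). The brightest complex I members, Ndufb11 and Ndufa1, were not called. Ndufb11 read 5725, 5776 and 5362 against 4830, 4900 and 4985, groups that did not overlap, with a difference of -0.20 (adjusted p = 0.0728, limma). Ndufa1 read 5105, 5098 and 4945 against 5244, 4786 and 5271, overlapping, with a difference of 0.01 and a 95% interval from -0.17 to 0.20.

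**Figure D3:**
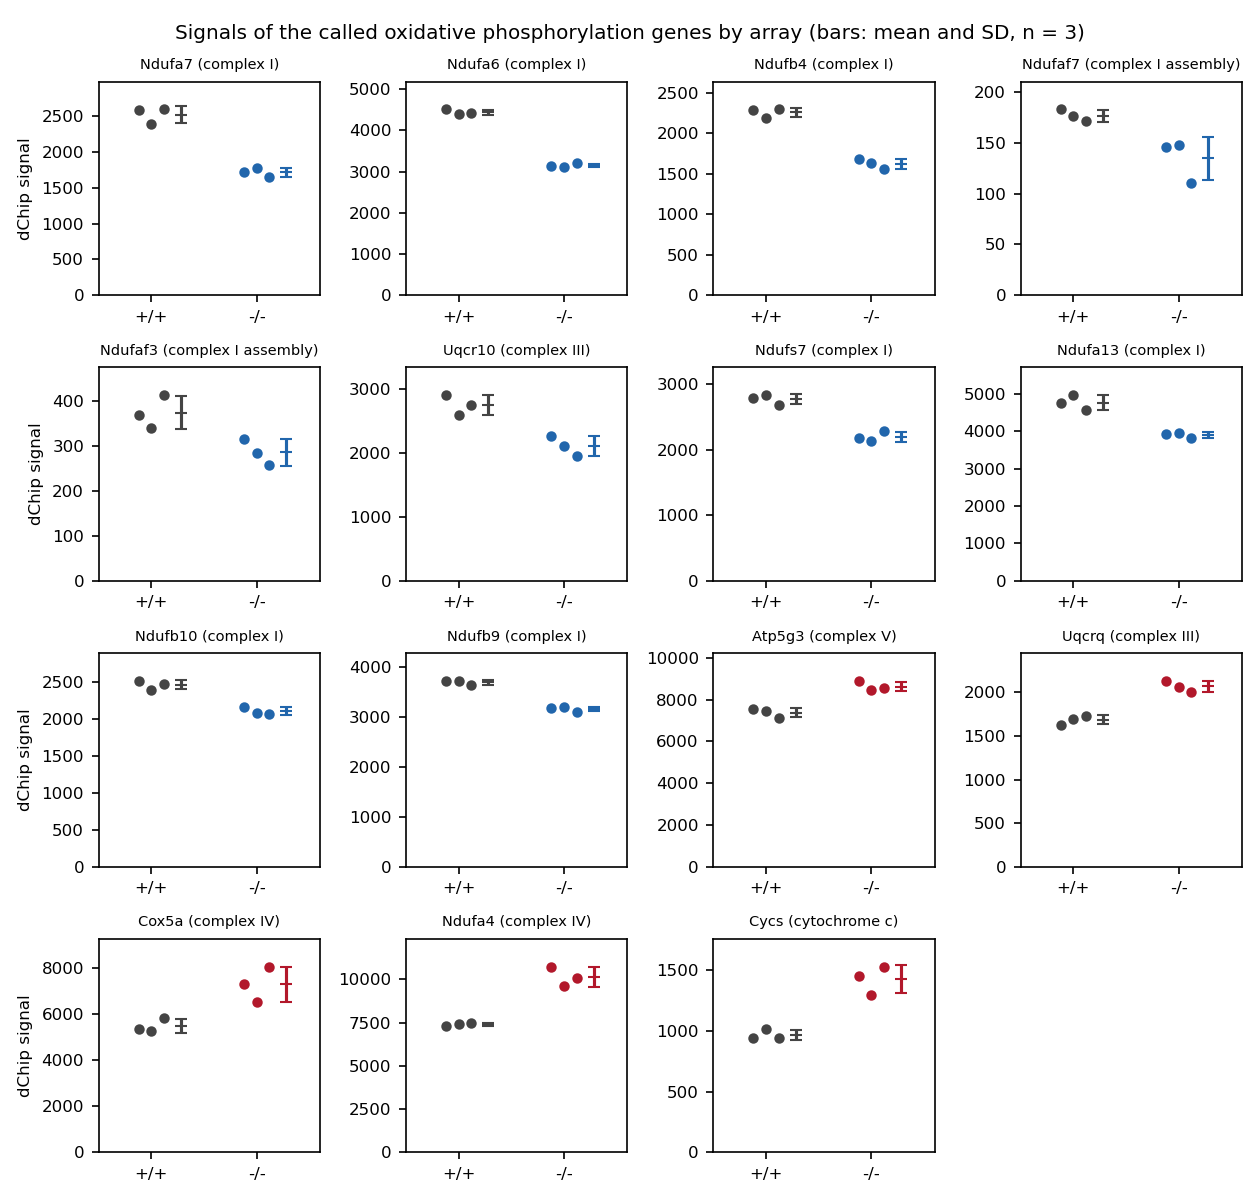
Signal (linear dChip units, axes from 0) of 15 called oxidative phosphorylation genes on each array, with the mean and SD of the 3 arrays per genotype beside the points (grey Spdef +/+, blue called lower and red called higher in Spdef -/-). In every panel the 2 genotypes are separate; Ndufa6 falls from 4390 to 4510 down to 3110 to 3197, and Ndufa4 rises from 7306 to 7483 up to 9601 to 10744.

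Complex I assembly factors help build the complex and leave it afterwards. Of 8 tested, 2 were called lower and 0 higher by limma (1 higher at an unadjusted p under 0.05), and both calls were lost with quantile normalization or median centring, where 1 other factor was called higher. The share called lower is near the 24.0% of all genes. Ndufaf3, which acts on the part of the complex that reduces ubiquinone, read 369, 339 and 412 in Spdef +/+ and 314, 284 and 256 in Spdef -/-. The lowest Spdef +/+ and the highest Spdef -/- value lay close, and the difference was -0.39 ± 0.11 (adjusted p = 0.0349, limma). Ndufaf7, a methyltransferase needed early in assembly, read 183, 176 and 171 against 146, 148 and 110, with Spdef -/- replicate 3 lowest, a difference of -0.41 ± 0.13 (adjusted p = 0.0448, limma). Ndufaf3 kept the call without 2 of the 6 arrays, and so did Ndufaf7. Without Spdef +/+ replicate 1 or 3 neither was called. The brightest factors, Ndufaf8 and Ndufaf2, gave differences of -0.11 (95% interval -0.42 to 0.20) and 0.10 (-0.10 to 0.31), and neither was called. The 8 further complex I assembly factors whose symbols do not start with Nduf had 0 called by limma (2 lower at an unadjusted p under 0.05) and a median of -0.05. Acad9, the brightest of them, was not called (-0.15, 95% interval -0.36 to 0.06).

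Complex II, succinate dehydrogenase, links the citric acid cycle to the respiratory chain. None of its 4 genes was called by limma with the brightest probe set (0 at an unadjusted p under 0.05), and 1 was called lower, Sdha, with the second brightest or with probe sets averaged. Sdha, the flavoprotein, read 2098, 1891 and 1938 against 1891, 1822 and 1842, which overlap, with a difference of -0.09 (95% interval -0.28 to 0.09). Its second brightest probe set read 1580, 1551 and 1488 against 1281, 1091 and 1126, with no overlap and a difference of -0.40 (adjusted p = 0.0195 in the limma fit of single probe sets). Sdhb, the iron-sulfur subunit, read 2662, 2707 and 2529 against 2380, 2518 and 1957, all lower in Spdef -/-, with a difference of -0.21 (-0.48 to 0.06, adjusted p = 0.175, limma). Of the membrane anchors, Sdhc differed by 0.07 (-0.13 to 0.28). Sdhd read 1088, 1034 and 1133 against 1294, 1152 and 1552, all higher in Spdef -/-, a difference of 0.29 whose interval reached from -0.01 to 0.58 (adjusted p = 0.106, limma). The median over the 4 genes, -0.01, turned to 0.06 on array medians and -0.09 on the bacterial controls.

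Complex III hands electrons from ubiquinol to cytochrome c. Of its 9 genes 1 was called lower and 1 higher, both small accessory subunits, and the median was 0.12. Uqcr10 read 2904, 2596 and 2747 in Spdef +/+ and 2260, 2103 and 1956 in Spdef -/-. The difference was -0.38 ± 0.09, 1.31-fold lower (adjusted p = 0.0162, limma), and a second probe set gave -0.33. Without Spdef +/+ replicate 1 the call was lost. Uqcrq read 1631, 1698 and 1732 against 2132, 2064 and 2009, with no overlap, a difference of 0.29 ± 0.07 and 1.23-fold higher (adjusted p = 0.0198, limma). Its call was lost without Spdef +/+ replicate 1 or 2 or Spdef -/- replicate 1 or 2. The brightest subunits, Uqcrb (0.05, 95% interval -0.18 to 0.28) and Uqcrh (-0.10, -0.30 to 0.09), were not called, nor was Cyc1, the cytochrome that passes electrons on (0.14, -0.07 to 0.35).

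Cycs, the somatic form of cytochrome c, carries electrons from complex III to complex IV and is also known as a trigger of caspase activation once released from mitochondria. It had the largest increase of the called members. The probe set read 945, 1014 and 946 in Spdef +/+ and 1451, 1301 and 1532 in Spdef -/-. The lowest Spdef -/- value was well above the highest Spdef +/+ value, and the difference was 0.56 ± 0.09, 1.47-fold higher (adjusted p = 0.00439, limma). Leaving out any 1 array kept the call (largest adjusted p = 0.0232, limma). The other Cycs probe set was Present on no array, so that the result rests on 1 probe set, and cross-hybridization with processed copies of the gene was not tested.

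Complex IV, cytochrome c oxidase, had 2 of its 14 tested genes called higher, 0 lower by limma (1 lower at an unadjusted p under 0.05), and a median of 0.05, which became -0.03 on the bacterial controls. Ndufa4 was first named as a complex I subunit and is now known as part of complex IV. It read 7306, 7412 and 7483 in Spdef +/+ and 10744, 9601 and 10076 in Spdef -/-. The Spdef +/+ arrays lay close together and the Spdef -/- arrays far above them, a difference of 0.45 ± 0.08 and 1.37-fold higher (adjusted p = 0.00519, limma). Cox5a, a subunit on the matrix side, read 5372, 5271 and 5839 against 7316, 6540 and 8064. The difference was 0.41 ± 0.10, 1.33-fold higher (adjusted p = 0.021, limma), and the 2 other Cox5a probe sets gave 0.38 and 0.29. Its call was lost without Spdef +/+ replicate 1 or 2 or Spdef -/- replicate 1.

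Several complex IV subunits exist as a general form and a form known from other tissues, and the general forms were Present on all 6 arrays. Cox4i1 read 7312, 7068 and 7254 against 7373, 6926 and 6911, a difference of -0.03 with a 95% interval from -0.20 to 0.14. Its partner Cox4i2, known from lung and from the response to low oxygen, was Present on no array, with signals of 2.08 to 34.0. Of the pairs with a heart and muscle form, Cox6a1 differed by -0.06 (-0.28 to 0.16), Cox7a2 by 0.02 (-0.15 to 0.19) and Cox8a by -0.04 (-0.23 to 0.14). Of the muscle forms, Cox6a2 was Present on 2 arrays and was not tested, and Cox8b was Present on no array. Cox7a1, Present on all 6, read 75.5 to 94.7 in Spdef +/+ and 62.8 to 113 in Spdef -/-. It was highest on Spdef -/- replicate 1. Among the Spdef +/+ arrays it was highest on replicate 3, where muscle markers were highest too. Cox7a1 was not called (0.12, -0.43 to 0.66), and a muscle source of its signal was not tested.

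Cox7a2l, known for its part in joining complexes III and IV, read 4989, 5100 and 5059 against 4140, 4181 and 5510. Spdef -/- replicates 1 and 2 were below and replicate 3 above all Spdef +/+ arrays, and the gene was not called by this probe set (-0.14, -0.44 to 0.16). Both other Cox7a2l probe sets were lowest on Spdef -/- replicate 3, at 2602 against 3716 to 4239 in Spdef +/+ for the first (-0.43, adjusted p = 0.024, limma) and at 2273 against 3163 to 3868 for the second (-0.42, adjusted p = 0.0624, limma). Cox6b1 differed by 0.08 (-0.10 to 0.27). Its testis form Cox6b2, Present on 4 arrays, read 41.6, 24.8 and 61.2 against 26.0, 24.8 and 13.9, dim and overlapping, with the widest interval of all members (-1.85 to -0.03, adjusted p = 0.0917, limma). At the threshold of detection, Cox8c was Present on 3 arrays and just inside, at 81.7 to 125, and Cox6a2 was just outside, at 64.0 to 102. The 3 Present calls of Cox8c were all in Spdef +/+, though its mean signal was 94.0 there and 104 in Spdef -/-. Cox7b2 and Ndufa4l2, a relative of Ndufa4 known from low oxygen, were Present on no array.

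Complex V, the ATP synthase, had 1 of its 17 genes called higher, 0 lower by limma (1 lower at an unadjusted p under 0.05), and a median of 0.04, which became -0.04 on the bacterial controls and -0.01 with quantile normalization. For 16 of the 17 the 95% interval lay within 0.5 log2 of 0. Atp5g1, Atp5g2 and Atp5g3 encode the same membrane-rotor protein behind different import signals. Atp5g3 read 7531, 7483 and 7135 in Spdef +/+ and 8902, 8455 and 8537 in Spdef -/-. All Spdef -/- arrays were higher, by a difference of 0.23 ± 0.07 (adjusted p = 0.0463, limma), yet the call was lost whichever array was left out. Atp5g1 (0.12, -0.16 to 0.40) and Atp5g2 (-0.12, -0.37 to 0.14) overlapped between genotypes and were not called. Atp5a1, the catalytic-head subunit alpha, read 7597, 7246 and 7244 against 7483, 7232 and 6940, a difference of -0.03 (-0.20 to 0.15).

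Genes that feed or build the respiratory chain were read from the same fit. In pyruvate dehydrogenase and the citric acid cycle, 8 of 19 tested genes were called higher and 2 lower, with a median of 0.13. The share called higher was 42.1%, against 15.8% of all genes. Sucla2, a subunit of succinyl-CoA ligase, read 914, 842 and 851 against 1346, 1258 and 1510, with no overlap, and rose 1.57-fold (adjusted p = 0.00294, limma). Cs, citrate synthase, read 3166, 3323 and 3037 against 4176, 3976 and 4088 and rose 1.29-fold (adjusted p = 0.0104, limma). Dlst rose 1.30-fold by its brightest probe set (adjusted p = 0.00965, limma), but its second brightest gave -0.05 (adjusted p = 0.853, limma). The list's counts depended on the probe set: averaging a gene's probe sets gave 3 higher and 3 lower, and taking the second brightest gave 5 higher and 4 lower with a median of -0.03. On array medians 9 were higher and 0 lower by limma (2 lower at an unadjusted p under 0.05). On the bacterial controls 0 were called either way (0 at an unadjusted p under 0.05). Leaving out 1 array gave 4 to 7 higher and 0 to 1 lower: 4 without Spdef +/+ replicate 1, 4 without 2, 6 without 3, and 6, 5 and 7 without Spdef -/- replicate 1, 2 and 3.

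Fatty acid oxidation moved the other way in the counts, with 7 of 16 genes called lower and 1 higher and a median of -0.18. The share called lower was 43.8%, against 24.0% of all genes. On the bacterial controls 1 gene was called lower and 0 higher by limma (2 and 0 at an unadjusted p under 0.05). Decr1, which handles unsaturated fatty acids, read 438, 498 and 424 against 254, 246 and 257 and fell 1.79-fold (adjusted p = 0.00101, limma). Eci1, an isomerase for the same substrates, fell 1.55-fold from 1077, 1029 and 1077 to 726, 688 and 638 (adjusted p = 0.00191, limma). Etfb, which passes electrons from fatty acid oxidation toward ubiquinone, fell 1.39-fold (adjusted p = 0.00482, limma). Spdef +/+ replicate 2, with its fat genes, was the highest of the 6 arrays for Decr1 and Etfb and not for Eci1. Without it the list had 5 lower and 0 higher by limma (8 and 1 at an unadjusted p under 0.05). Without Spdef +/+ replicate 1 it had 4 lower, and without Spdef -/- replicate 1 it had 5.

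Assembly factors of complexes II to V had 7 of 28 called lower and 0 higher by limma (1 higher at an unadjusted p under 0.05), with a median of -0.15. Sdhaf4, which serves complex II, read 760, 700 and 810 against 508, 512 and 484 and fell 1.51-fold (adjusted p = 0.00286, limma). Ttc19, of complex III, read 246, 264 and 210 against 126, 159 and 129 and fell 1.74-fold (adjusted p = 0.00479, limma), a call lost with its second brightest probe set. Surf1, of complex IV, fell 1.62-fold from 958, 816 and 989 to 550, 645 and 515 (adjusted p = 0.00581, limma). That share called lower is near the 24.0% of all genes. On array medians 6 were lower and 1 was higher, and without Spdef +/+ replicate 1 or 2 the list had 4 lower.

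Among regulators of mitochondrial biogenesis and keepers of mitochondrial DNA, 3 of 25 were called lower and 1 higher, with a median of -0.09. Ppargc1a, which encodes PGC-1α, read 354, 335 and 292 in Spdef +/+ and 143, 133 and 121 in Spdef -/-. It fell 2.47-fold (log2 difference -1.30 ± 0.11, adjusted p = 0.000501, limma), more than any member of the respiratory complexes did. Its relative Pprc1 read 295, 249 and 280 against 375, 350 and 391 and rose 1.36-fold (adjusted p = 0.0126, limma). Tfb1m, a methyltransferase of the mitochondrial ribosome's RNA, fell 1.47-fold (adjusted p = 0.00198, limma), but its call was lost with the second brightest probe set. With quantile normalization or on array medians the list had 2 called each way, and without Spdef -/- replicate 2 it had 5 lower. No link between these regulators and the members was tested.

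**Figure D4:**
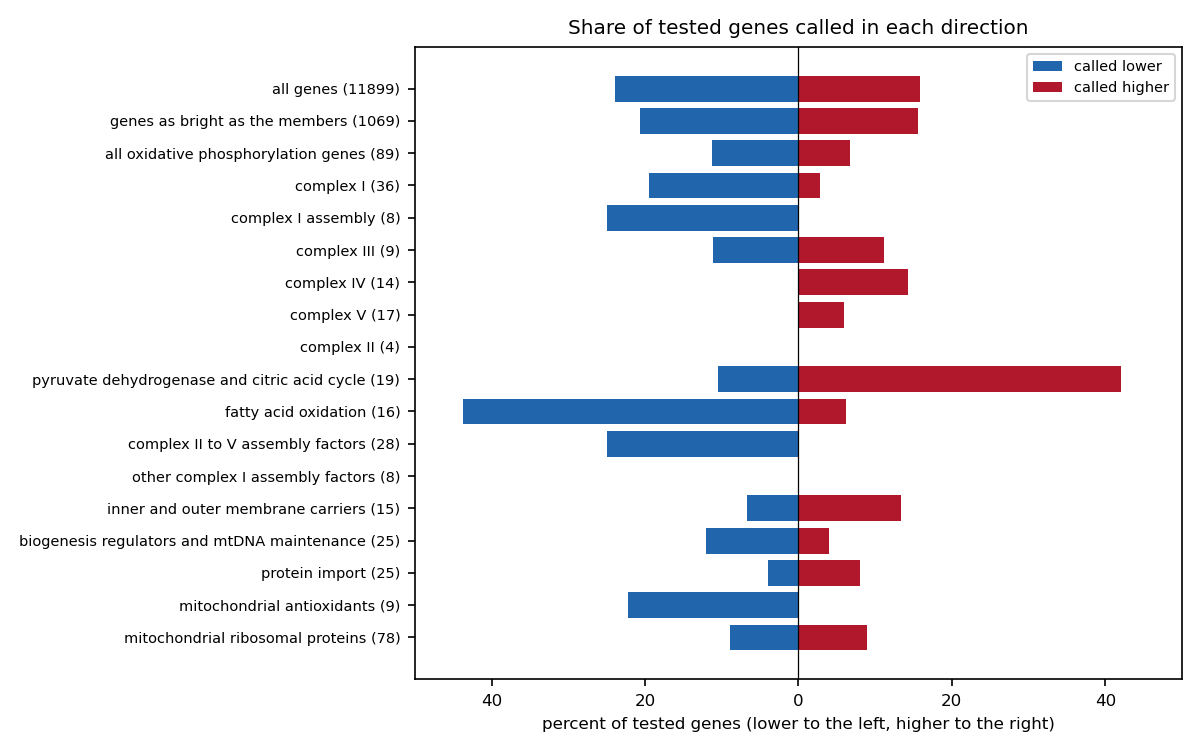
Percent of tested genes called lower (blue, left) and higher (red, right) in Spdef -/-, for all genes, genes as bright as the members, each complex and each other mitochondrial list (number tested in brackets). All genes stand at 24.0% lower and 15.8% higher and the members at 11.2% and 6.74%; fatty acid oxidation reaches 43.8% lower and the citric acid cycle list 42.1% higher. On array medians the members' split turned to 6 lower and 10 higher, and with a gene's probe sets averaged the citric acid cycle list had 3 called each way.

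The remaining lists were called seldom. Of 15 carriers 1 was lower and 2 were higher: Mpc1, a subunit of the pyruvate carrier, read 1430, 1149 and 1500 against 812, 871 and 669 and fell 1.73-fold (adjusted p = 0.00681, limma). Slc25a1, the citrate carrier, rose by 0.68 on the log2 scale (adjusted p = 0.00264, limma), and Slc25a4, an ADP/ATP carrier, rose 1.26-fold (adjusted p = 0.0238, limma). Of 25 protein import genes 1 was lower and 2 were higher. Pam16 read 1383, 1345 and 1402 against 907, 876 and 981 and fell by 0.58 on the log2 scale (adjusted p = 0.00229, limma), whereas the chaperonin Hspd1 rose 1.42-fold (adjusted p = 0.00554, limma) and the outer-membrane pore Tomm40 rose 1.49-fold (adjusted p = 0.00595, limma). On array medians 5 import genes were higher and 1 lower, without Spdef +/+ replicate 3 the list had 2 each way, and without Spdef -/- replicate 3 it had 3 each way. Of the carriers called higher, 1 was left without Spdef +/+ replicate 1 or 2 or Spdef -/- replicate 1 or 2. Of 9 antioxidant genes 2 were lower, Txnrd2 by a log2 difference of -0.62 (adjusted p = 0.00177, limma) and Gpx4 by -0.59 (adjusted p = 0.00473, limma). The antioxidants' share called lower, 22.2%, is near the 24.0% of all genes. The 78 mitochondrial ribosomal proteins had 7 called each way and a median of 0.03. On array medians they had 2 lower and 9 higher, and on the bacterial controls 0 and 0 (1 lower and 0 higher at an unadjusted p under 0.05). Each array left out moved these counts, to 2 lower and 3 higher without Spdef +/+ replicate 1 or Spdef -/- replicate 1, 4 and 3 without Spdef +/+ or Spdef -/- replicate 2, 3 and 4 without Spdef +/+ replicate 3, and 5 and 6 without Spdef -/- replicate 3. Mrps35 fell 1.45-fold (adjusted p = 0.00208, limma) and Mrpl23 1.37-fold (adjusted p = 0.00745, limma), and Mrpl18 rose 1.34-fold (adjusted p = 0.00746, limma).

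Measures of the arrays stand beside all these results, and not all of them moved with genotype. Present calls numbered 24589 to 24833 in Spdef +/+ and 23290 to 23370 in Spdef -/-, with no overlap (exact permutation test, 2-sided, p = 0.1, the smallest that 3 against 3 arrays can give). The log2 ratio of 3′ to 5′ Gapdh control signals, a measure of RNA quality, was 1.56 ± 0.26 in Spdef +/+ and 1.41 ± 0.19 in Spdef -/- (SD, n = 3 each; exact permutation test, p = 0.5), and that of beta-actin 1.69 ± 0.14 and 1.62 ± 0.30 (p = 0.7, the same exact test). Goblet cell markers fell, and proliferation, neutrophil and lymphocyte markers rose, in the same samples. Their part in the differences of the oxidative phosphorylation genes was not tested.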

How the data were processed

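RNA of 6 samples was measured on Affymetrix arrays. The authors deposited dChip model-based intensity values on a linear scale, 1 per probe set and array, per the file headers. For the background method, the normalization and the algorithm behind the deposited detection calls (Present, Marginal or Absent), nothing is given in the sources used here. The authors' deposited comparison table holds signed fold changes as score values for 153 probe sets, kept per the file headers at a lower fold bound over 3, a difference over 20 and p at most 0.01. The intensity values were deposited a second time as a separate table, and 0 of its values differed.

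Of 45101 probe sets, 64 were controls and 36909 took 1 symbol each (18096 genes) from the supplied RefSeq gene table (GRCm38.p6), 36239 by gene ID, 609 by the 1 of several IDs found there and 61 by accession; 585 matched several genes and 7543 none, and these were left out. A floor of 1 was applied before the log2 step. Genes were tested in R 4.3.3 by lmFit and eBayes of limma 3.58.1 (genotype as the 1 term, 2-sided, Benjamini-Hochberg over 11899 genes, threshold 0.05), after the procedure was tested on simulated data. Lists have no test of their own. The arrays limit precision, and p-values measure the spread between these pooled samples. Probe sets of 1 gene were also fitted singly.

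The members and lists were chosen with earlier results of these data known. The genes named are, in each complex, up to 4 called with the smallest adjusted p and the 2 brightest, the isoform pairs of complexes IV and V, Sdha to Sdhd, Cyc1 and Cycs, and in each other list up to 3 called or the brightest; Cox8c, Cox7b2 and, among called members, Ndufa13, Ndufb9 and Ndufb10 were named outside this rule, as were members named for a further probe set. The result of 1 member is not reported here, though it is included in the counts. Alternatives were: no filter, Present on all 6 arrays, or a mean log2 signal of at least 6; quantile normalization, centring on array medians or on bacterial controls; a floor of 16 or a pseudocount of 32; eBayes with trend and robust (statmod 1.5.0), array weights or a replicate block; a gene's mean or second brightest probe set; probe sets of several IDs unnamed; the second deposited table; and each array left out.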

Additional observations from a re-analysis of the deposited data

How the results depend on the processing

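The named genes gave 1298 single values under the alternatives, of which 1164 kept their side of the threshold, 122 lost the call and 11 gained one. The remaining 1 belonged to a called gene that turned sign (Dlst, -0.050 by its second brightest probe set). Changes of sign in genes uncalled both ways were counted among the 1164. Members called lower (10) and higher (6) became 5 and 2 without the detection filter, 6 and 10 on array medians, 1 and 0 on the bacterial controls, and with each array left out 3 to 9 and 2 to 5. Members called lower were 17 with trend and robust and 17 with array weights. The other mitochondrial lists (30 lower, 21 higher) became 17 and 11 without the filter (over the genes tested with it), 4 and 0 on the bacterial controls, and 16 to 30 and 11 to 21 with each array left out. All genes (2850 lower, 1878 higher) became 1136 and 598 on the bacterial controls, and 1850 to 2734 and 1277 to 1825 with each array left out. The bacterial controls' median log2 signal ran from 11.10 to 11.81 over the arrays, a spread that this centring adds to every gene. The complex medians moved as follows on array medians and on the bacterial controls: complex I from -0.12 to -0.058 and -0.20 (-0.099 with quantile normalization), complex II from -0.010 to 0.055 and -0.089, complex III from 0.12 to 0.18 and 0.037, complex IV from 0.050 to 0.12 and -0.028, complex V from 0.037 to 0.10 and -0.042. With each array left out they ran from -0.15 to -0.11 (I), -0.055 to 0.014 (II) and -0.0074 to 0.057 (IV). Apart from the scalings' and left-out arrays' own construction, the cause of these shifts was not tested. Signals near background limit Cox6b2, Cox7a1, Cox8c and Ndufaf6.

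The replicate numbers did not pair the arrays: same-numbered arrays' deviations from their group means correlated at -0.01, -0.09 and -0.08. A fit with the replicate number as a block called 4 members lower and 4 higher, and 17 and 12 genes of the other lists.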
